A study of Homo sapiens with 4 samples.

Results

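Promoters of long noncoding RNA (lncRNA) genes were followed through the chromatin change that goes with resistance to enzalutamide. An interval of open chromatin was counted as a lncRNA promoter peak when it overlapped the 1000 bp either side of a GENCODE lncRNA transcription start site (TSS) and lay more than 2000 bp from every protein-coding TSS. These were 5095 of the 149676 intervals of C4-2B and 4722 of the 118728 intervals of C4-2BER. They stood at 5056 of the 18824 annotated lncRNA genes (26.9%). Another 4106 intervals in C4-2B and 4141 in C4-2BER lay near a lncRNA TSS but also within 2000 bp of a coding TSS, and were left out by the rule.

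C4-2B is a human prostate adenocarcinoma line, and C4-2BER is its neuroendocrine-like derivative, grown under continuous enzalutamide, an androgen receptor antagonist. ATAC-seq, which uses the transposase Tn5 to cut and tag accessible DNA, gave the open chromatin. The 2 libraries of each line were merged before peaks were called, so each line is 1 list, no difference has a replicate check and none was tested between the lines. Intervals beside a share are Wilson 95% intervals and reflect only the error of counting. The depth recovered from the lists was 30.2 M reads in the parental and 25.2 M in the resistant line. Ratios of reads were scaled by the depth ratio of 1.20. Counts of shared and line-only intervals and genes used the unscaled lists, except where C4-2B was scaled to the C4-2BER depth as an alternative. As a check of the line labels, the promoters of all 5 luminal markers checked and of all 5 neuroendocrine markers checked were open in both lists, so the state of these promoters does not tell the lines apart. The summit reads of KLK3, which encodes prostate-specific antigen, were 171 in C4-2B and 45 in C4-2BER, and those of SRRM4, a neural splicing factor, were 17 and 100.

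LncRNAs are transcripts of RNA polymerase II that do not encode a protein. Many are cell type restricted, their promoters hold fewer CpG dinucleotides than those of coding genes, and a number of them start within an enhancer or on the strand opposite a coding gene. Some act in cis on a neighbouring gene, some in trans, and for most no function is known. An open interval marks accessible DNA, which need not be a start of transcription, and does not measure the RNA.

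The DNA around the summits of strong named line-only genes is given first as examples, 3 for C4-2B and 2 for C4-2BER. Each stretch holds 201 bases of the hg38 plus strand, read 5′ to 3′, and capitals mark matches, on either strand, to any of the 16 motifs searched. Besides those spelled out where they are used, these were NFY (CCAATCA or CCAATGA), a REST site part (GGACAGNGC), PBX-HOX (TGATTNAT, which can overlap an HNF1 match), NRF1 (GCGCATGCG), POU (ATGCAAAT), an E-box (CAGCTG) and the TATA box (TATAAA). The first 3 were open in C4-2B only.
LINC02436 (chr4:185086747-185086947): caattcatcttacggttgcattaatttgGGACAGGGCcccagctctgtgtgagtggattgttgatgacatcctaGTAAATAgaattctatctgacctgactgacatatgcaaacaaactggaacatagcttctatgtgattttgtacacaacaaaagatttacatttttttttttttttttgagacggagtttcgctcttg
HECW2-AS1 (chr2:196259904-196260104): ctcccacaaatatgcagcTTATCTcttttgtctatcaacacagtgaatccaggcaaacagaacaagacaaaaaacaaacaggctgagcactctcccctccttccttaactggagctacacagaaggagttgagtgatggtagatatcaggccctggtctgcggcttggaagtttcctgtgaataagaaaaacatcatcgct
LINC02703 (chr11:115921163-115921363): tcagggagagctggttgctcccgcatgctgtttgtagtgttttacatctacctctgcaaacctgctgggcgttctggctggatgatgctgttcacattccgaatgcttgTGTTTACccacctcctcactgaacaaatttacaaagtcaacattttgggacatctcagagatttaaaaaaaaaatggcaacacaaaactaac
The next 2 were open in C4-2BER only.
FAM157C (chr16:90106375-90106575): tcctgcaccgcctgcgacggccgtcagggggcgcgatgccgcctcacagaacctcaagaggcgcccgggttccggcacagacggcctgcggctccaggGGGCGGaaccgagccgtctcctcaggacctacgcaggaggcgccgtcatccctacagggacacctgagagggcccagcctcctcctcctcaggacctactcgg
LINC02175 (chr16:25066792-25066992): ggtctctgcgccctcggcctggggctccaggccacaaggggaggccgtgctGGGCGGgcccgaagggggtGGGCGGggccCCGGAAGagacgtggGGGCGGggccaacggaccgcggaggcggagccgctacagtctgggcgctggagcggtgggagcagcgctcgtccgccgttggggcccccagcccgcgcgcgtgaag
The 3 sequences of C4-2B held 36.8, 44.8 and 43.3% G and C and 3, 2 and 3 CpG dinucleotides, with a forkhead match in LINC02436 and in LINC02703. The 2 sequences of C4-2BER held 70.6 and 78.1% G and C and 19 and 24 CpG dinucleotides, and each of them had at least 1 GGGCGG box, the letters bound by SP and KLF factors. LINC02175 held 3 such boxes. These strong examples are not typical of the line-only peaks. In 501 bp around the summit, the median G and C was 46.9% over all C4-2B-only and 51.3% over all C4-2BER-only peaks. FAM157C also has near-identical copies elsewhere in the genome, and its peak is uncertain for that reason.

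A second set shows androgen response elements, searched as GNACA, then 3 bases of any kind, then TGTNC, in C4-2B-only lncRNA promoter peaks. These were chosen after their values were seen, as the peaks with a match and the highest −log10 q, together with LINC00844, a lncRNA known to be induced by the androgen receptor.
SLC8A1-AS1 (chr2:40114054-40114254): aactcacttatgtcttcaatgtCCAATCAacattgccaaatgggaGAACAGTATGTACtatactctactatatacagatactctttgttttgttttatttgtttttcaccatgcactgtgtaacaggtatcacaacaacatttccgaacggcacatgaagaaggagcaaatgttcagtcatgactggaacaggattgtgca
ENSG00000287902 (chr1:209531012-209531212): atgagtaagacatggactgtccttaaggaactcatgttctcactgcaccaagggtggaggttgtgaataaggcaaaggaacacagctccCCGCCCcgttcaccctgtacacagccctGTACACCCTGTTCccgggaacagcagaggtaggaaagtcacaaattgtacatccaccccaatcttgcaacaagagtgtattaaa
LINC00844 (chr10:58999412-58999612): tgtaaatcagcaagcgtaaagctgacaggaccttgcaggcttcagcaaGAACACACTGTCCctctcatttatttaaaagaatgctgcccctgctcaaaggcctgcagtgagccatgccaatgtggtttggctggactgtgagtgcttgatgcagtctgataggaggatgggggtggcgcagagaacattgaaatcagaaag
Another set, chosen in the same way, shows HNF1 matches in C4-2BER-only peaks. HNF1 factors are homeodomain proteins of liver and gut, and the letters searched were GTTAAT, then 1 base, then ATTA.
ENSG00000233397 (chr2:162091728-162091928): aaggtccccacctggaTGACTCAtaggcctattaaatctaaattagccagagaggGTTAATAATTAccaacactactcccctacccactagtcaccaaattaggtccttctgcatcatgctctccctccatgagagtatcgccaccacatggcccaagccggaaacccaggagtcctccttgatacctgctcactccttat
ENSG00000261411 (chr20:11687735-11687935): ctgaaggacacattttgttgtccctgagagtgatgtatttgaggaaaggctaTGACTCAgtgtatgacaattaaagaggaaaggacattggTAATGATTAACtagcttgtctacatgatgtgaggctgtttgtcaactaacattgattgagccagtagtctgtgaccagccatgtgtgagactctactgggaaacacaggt

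Most lncRNA promoter peaks were open in both lines. Of the 5095 peaks of C4-2B, 3709 (72.8%, interval 71.6 to 74.0%) overlapped an interval of C4-2BER, and 1386 (27.2%) were found in C4-2B only, against 37.7% line-only among all C4-2B intervals. Of the 4722 peaks of C4-2BER, 3708 (78.5%, interval 77.3 to 79.7%) overlapped an interval of C4-2B, and 1014 (21.5%) were found in C4-2BER only, against 20.8% of all its intervals. Peaks at coding promoters were shared more often, with 83.8% in C4-2B and 86.4% in C4-2BER. Intervals at neither kind of promoter were shared in 57.4% of cases in C4-2B and in 77.4% in C4-2BER. In the C4-2B list the lncRNA promoters thus stood between coding promoters and the other intervals, whereas in the C4-2BER list they stood close to the other intervals.

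The position of a peak relative to the TSS went with its sharing, and it did so differently in the lists. Of the C4-2B peaks that covered a lncRNA TSS, 85.1% (interval 83.7 to 86.5%, of 2410) were shared, and the share was 63.2% at 1 to 500 bp, 59.8% at 501 to 1000 bp and 57.8% at 1001 to 2000 bp, outside the member window. In C4-2BER the share was 82.4% (interval 80.9 to 83.9%, of 2465) over the TSS and 73.0, 76.0 and 77.7% at the same distances. At the TSS itself the counts therefore leaned to the resistant line, with 358 line-only peaks in C4-2B and 433 in C4-2BER. Away from the TSS C4-2B had 1028 line-only peaks and C4-2BER had 581. A TSS lay inside 25.8% (interval 23.6 to 28.2%) of the peaks open in C4-2B only, and inside 42.7% (interval 39.7 to 45.8%) of those open in C4-2BER only.

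**Figure D1:**
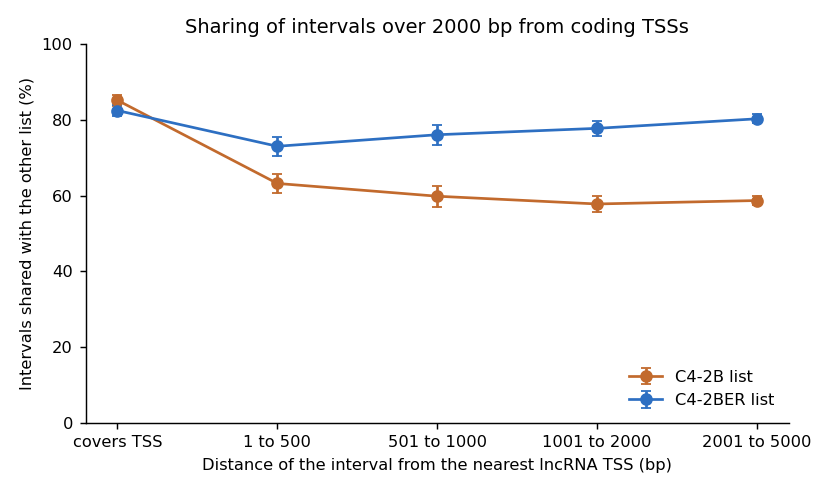
Percent of intervals shared with the other list (vertical axis) by distance in bp from the nearest lncRNA TSS (horizontal axis), for intervals over 2000 bp from every coding TSS. Points are shares and bars are Wilson 95% intervals, for counting error only. The lists lie close at the TSS (85.1 and 82.4%) and apart beyond it (63.2 and 73.0% at 1 to 500 bp).

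Line-only peaks were weak and narrow. The C4-2B-only promoters had a median of 19 summit reads (quartiles 14 and 29) and a median width of 275 bp, against 49 reads and 547 bp for the shared peaks of the same list. The C4-2BER-only peaks had a median of 16 reads and 276 bp. Of the C4-2B-only promoters 34.3% reached a −log10 q of 10, as did 30.6% of the C4-2BER-only ones. Sharing followed strength in both lists. Over the lowest 20% of ranks of the C4-2B list 37.3% of the lncRNA promoter peaks were shared, and over the highest 20% of ranks 97.1%. The same shares in C4-2BER were 50.3% and 96.3%. At matched rank the lncRNA peaks of C4-2B stayed above the intervals away from promoters, for example with 73.2% against 61.3% at ranks of 40 to 60%, while those of C4-2BER stood below them, with 76.3% against 83.7%.

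Base composition set the directions apart. The C4-2B-only peaks had a median of 46.9% G and C and 6 CpG dinucleotides in 501 bp around the summit, and the C4-2BER-only peaks 51.3% and 12. Among line-only promoters that reached a −log10 q of 10 the medians were 45.7% (quartiles 41.5 and 51.3, 476 peaks) in C4-2B and 56.1% (quartiles 48.7 and 64.1, 310 peaks) in C4-2BER. The composition was also split by position. Over the TSS the line-only medians were 47.1% in C4-2B and 54.9% in C4-2BER, and off the TSS 46.9% and 49.7%. The direction was the same at both positions. All line-only intervals past the same −log10 q also leaned this way, with 42.7% in C4-2B and 50.3% in C4-2BER.

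Counted by gene, 3448 lncRNA genes (68.2%, interval 66.9 to 69.5%) had a promoter interval in both lists, 964 (19.1%, interval 18.0 to 20.2%) in C4-2B only and 644 (12.7%, interval 11.8 to 13.7%) in C4-2BER only. Among the 15891 coding genes with a peak within 1000 bp of a TSS, 92.3% were in both lists, 2.88% in C4-2B only and 4.86% in C4-2BER only. In the full lists, lncRNA genes were thus more often line-only than coding genes. The order of the lists was opposite, with more C4-2B-only genes among the lncRNAs and more C4-2BER-only genes among the coding genes. They are not judged alike: a coding gene counts at any TSS, a lncRNA gene only at TSSs that a lncRNA promoter peak overlaps. The balance among the lncRNA genes turned with the list lengths. With the C4-2B list cut to the length of the C4-2BER list by −log10 p, 588 genes were in C4-2B only and 903 in C4-2BER only. When both lists were limited to a −log10 q of 10 or more the counts were 849 and 426. The coding counts were not recomputed at either setting. The other list had no peak within 10 kb of the TSS for 335 of the 964 C4-2B-only genes and for 231 of the 644 C4-2BER-only genes.

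The classes of lncRNA, taken from the gene symbols, differed in how often they were line-only. Host genes of microRNAs and small nucleolar RNAs were in both lists in 51 of 64 cases (79.7%), LINC genes in 685 of 957 (71.6%), antisense genes in 302 of 430 (70.2%) and genes with only an Ensembl identifier in 2093 of 3176 (65.9%). Of the 49 divergent transcripts, which are named after the coding gene they start next to, 18 (36.7%, interval 24.7 to 50.7%) were in C4-2B only and 3 in C4-2BER only. Since peaks near coding TSSs were left out, these 49 are starts of divergent transcripts that lie away from the shared promoter. ODC1-DT with 106 summit reads and PPP1R3B-DT with 43 were among the strongest of the 18, chosen after their values were seen. Of the host genes, 7 were in C4-2BER only, led by MIR181A1HG with 58 summit reads, MIR202HG with 34 and MIR130AHG with 23, and followed by MIR4432HG, MIR2052HG, MIR137HG and MIR5689HG with 8 to 15. The 6 in C4-2B only were MIR4422HG with 42, MIR497HG with 32, MIR4713HG with 22, SNHG14 with 19, MIR124-1HG with 17 and MIR7515HG with 12. The nearest coding gene was open in both lists for all 6 of these, as for 83.8% of all C4-2B-only lncRNA genes. By position, 25.7% (interval 23.1 to 28.6%) of the C4-2B-only genes started on the opposite strand within a coding gene, against 17.5% (interval 14.8 to 20.7%) of the C4-2BER-only genes and 586 of the 3448 genes in both lists. The C4-2BER-only genes resembled the genes in both lists in this respect, with 77.0% and 77.8% of them outside coding genes.

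**Figure D2:**
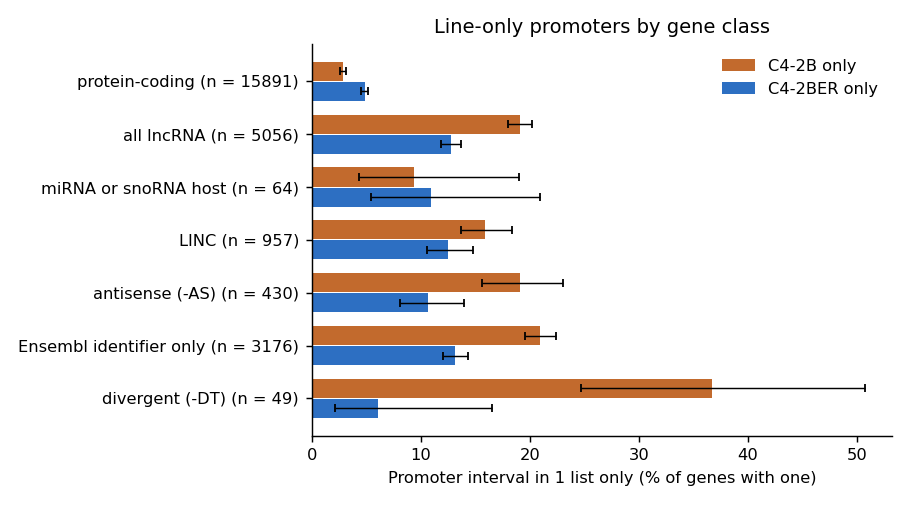
Percent of genes whose promoter interval was in 1 list only (horizontal axis), among genes with an interval in either list, by gene class (vertical axis, with n). Bars give the share and black lines the Wilson 95% interval. C4-2B-only shares exceed C4-2BER-only shares for all lncRNA genes (19.1 and 12.7%), and the order is opposite for coding genes (2.88 and 4.86%).

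The 10 named C4-2B-only genes with the highest −log10 q and no C4-2BER peak within 10 kb held 32 to 79 summit reads. LINC02703 led by reads with 79, and lay 415825 bp from CADM1, a cell adhesion gene whose promoter was open in both lists with 188 and 147 reads. LINC02436 had 63 reads and a −log10 q of 55.6. HECW2-AS1, which starts inside HECW2 on the other strand, had 61 reads in C4-2B and no peak in C4-2BER, while the HECW2 promoter 58283 bp away went the other way, with 26 reads in C4-2B against 63 in C4-2BER. RORA-AS2, within the gene of the nuclear receptor RORA, had 55 reads. The others were FMO9P, LINC00353, LINC00907, LINC01505, LINC01900 and LINC02662, with 32 to 46 reads. The nearest coding gene of every one of these 10 had its promoter open in both lists, as for 83.8% of all C4-2B-only lncRNA genes.

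The 10 corresponding C4-2BER-only genes held 35 to 61 reads. LINC02506 had the most reads, 61, and lay 1271634 bp from PCDH7, a protocadherin gene whose promoter stood at 34 reads in C4-2B against 72 in C4-2BER. MIR181A1HG, the host gene of miR-181a and miR-181b, had 58 reads and its nearest coding gene PTPRC was open in neither list. LINC02175 had 53 reads and a −log10 q of 42.7. LINC01551 had 50 reads and a −log10 q of 38.8. GPRC5D-AS1 had 42 reads, with GPRC5A at 45 and 77. LINC01414 had 35 reads, with the neural factor gene BHLHE22 at 22 and 32. DNM3OS, the host of miR-199a and miR-214, had 38 reads. FAM157C, CCDC144NL and PTENP1-AS, with 47, 46 and 41 reads, have near-identical copies elsewhere in the genome, and their peaks are uncertain for that reason. Some neighbours changed less, with log2 ratios of 0.39 for DNM3, 0.30 for LCMT1, 0.23 for USP22 and 0.04 for PRDM7. PRSS3, the neighbour of PTENP1-AS, was lower in C4-2BER at −0.40. The median over all coding promoters in both lists was 0.14.

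Among the 3448 lncRNA genes in both lists, the strongest peaks of the lists overlapped in 3173 (92.0%) and did not overlap in 275. The depth-scaled log2 ratio of reads, C4-2BER over C4-2B, had a median of −0.01 over the 3448 genes, with 191 genes at least 2-fold higher in C4-2BER and 336 at least 2-fold lower. Counted by peak, 4.77% (interval 4.13 to 5.51%) of the 3708 shared lncRNA promoter peaks were at least 2-fold higher in C4-2BER, against 2.57% of all shared peaks, and 11.8% (interval 10.8 to 12.8%) were at least 2-fold lower, against 15.3%. The lncRNA promoters therefore held a larger share of strengthened and a smaller share of weakened peaks than shared intervals at large, and the peaks at coding promoters had 3.17% and 5.03%.

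The genes highest in both lists were LINC00663 with 240 summit reads in C4-2B against 219 in C4-2BER, SLC28A2-AS1 with 188 and 165, CHASERR, which restrains its neighbour CHD2, with 224 and 195, and MIRLET7A1HG, a let-7 host gene, with 233 and 208. PMS2P3, with 184 and 170, is a copy of PMS2 and its reads may be shared with other copies. After depth scaling the log2 ratios of these 5 lay between 0.06 and 0.14. The largest gains in rank were at LINC02633, with 11 reads in C4-2B against 90 in C4-2BER (log2 ratio 3.29), LINC00173 with 17 and 94 (2.73), LINC01511 with 15 and 67 (2.42), ASMTL-AS1, in the pseudoautosomal region whose copies cannot be told apart, with 17 and 71 (2.32) and MID1IP1-AS1, whose peaks of 50 and 126 reads did not overlap. The largest drops were at ITGB5-AS1, with 115 and 12 reads (−3.00), LINC00608, next to the serotonergic factor gene FEV, with 121 and 22 (−2.20), and LINC01072 with 67 and 13 (−2.11). LINC03007, with 92 and 8 reads, and HULC, a lncRNA first described in liver cancer, with 61 and 8, belonged to the same group, but their peaks lay at different starts in the lists.

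**Figure D3:**
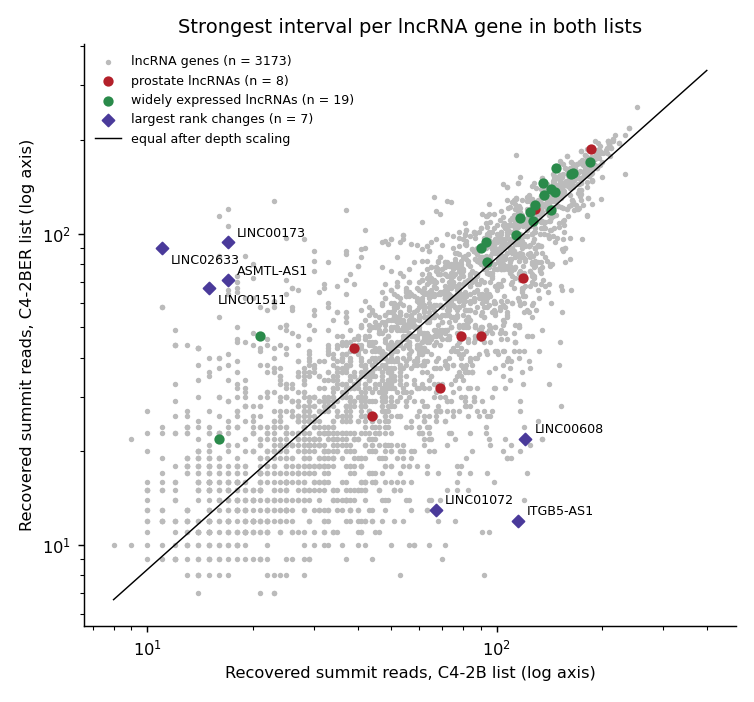
Recovered summit reads of the strongest interval of each lncRNA gene in C4-2B (horizontal log axis) and C4-2BER (vertical log axis), for the 3173 genes whose strongest intervals overlap. Red, green and purple points are prostate lncRNAs, widely expressed lncRNAs and the genes of largest rank change, and the line marks equal reads after depth scaling. LINC02633 lies far above the line with 11 and 90 reads and ITGB5-AS1 far below it with 115 and 12.

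LncRNA genes of known interest were grouped in 4 lists. Of 27 annotated prostate lncRNAs, 16 had a promoter peak away from coding TSSs, with 13 in both lists, LINC00844 in C4-2B only with 51 reads, and CASC19 and NAALADL2-AS2 in C4-2BER only with 12 and 21 reads. The 13 shared genes had a median log2 ratio of −0.47, with 8 lower and 5 higher in C4-2BER and none past 2-fold, against a median of −0.01 with 1760 lower and 1688 higher among all 3448 lncRNA genes in both lists. Among them, with reads in C4-2B first and C4-2BER second, SCHLAP1, a lncRNA tied to aggressive disease, stood at 69 and 32, PCAT14 at 90 and 47, PCAT18 at 44 and 26, PCAT1 at 79 and 47 and ARLNC1, an androgen receptor-regulated lncRNA, at 119 and 72. PCAT7 at 129 and 120, LINC00662 at 186 and 187 and LINC01116 at 39 and 43 were higher in C4-2BER after depth scaling (log2 ratios 0.15, 0.27 and 0.40). For PCA3 (19 and 21), DRAIC (100 and 105), PVT1 (134 and 77), CTBP1-AS (64 and 31) and PCAT19 (35 and 23) the strongest peaks did not overlap. Of 34 annotated neural and developmental lncRNAs, 17 had such a peak, with 10 in both lists, 3 in C4-2B only and 4 in C4-2BER only, against 68.2, 19.1 and 12.7% of all lncRNA genes with a promoter peak. The 4 were LINC01551 with 50 reads, PANTR1, beside the neural factor gene POU3F3, with 29, EMX2OS, opposite the forebrain gene EMX2, with 27, and MIR137HG, the host of a neuronal microRNA, with 11. The 3 were SNHG14 with 19 reads, FENDRR with 13 and LHX5-AS1 with 11. The 10 in both lists had a median log2 ratio of 0.05 and 1 was past 2-fold, PAX8-AS1 with 10 and 27 reads at different starts. RMST, which takes part in neurogenesis, had 19 and 31 reads (log2 ratio 0.97), MIAT 64 and 74, H19 74 and 72, LINC-PINT 109 and 95, SOX2-OT 38 and 32, MEG3 47 and 28, MIR124-2HG 37 and 26, and MIR9-3HG 127 and 101 at different starts. LINC00461, the host of miR-9-2, was strong in both lists with 192 and 166 reads.

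Of 18 HOX cluster lncRNAs, 11 had peaks only near a coding TSS and 4 had one away from it. HOTAIRM1, a lncRNA of the HOXA cluster, was in C4-2BER only with 32 reads. HOXA-AS2, HAGLR and HAGLROS were in both lists, HOXA-AS2 with 26 and 30 reads in peaks that did not overlap. HAGLR and HAGLROS share 1 peak, with 44 reads in C4-2B against 21 in C4-2BER. Of 27 annotated widely expressed lncRNAs, 20 had a promoter peak away from coding TSSs, and 19 of these were in both lists. Their median log2 ratio was 0.20, with 18 of 19 above 0, against 1688 of the 3448 lncRNA genes and a median of 0.14 over the coding promoters in both lists. MALAT1 stood at 143 and 119 reads, DANCR at 185 and 170, NORAD at 117 and 112 and SNHG15 at 166 and 157, with log2 ratios of −0.01, 0.14, 0.20 and 0.18. The exception to sharing was ZFAS1, a small nucleolar RNA host gene, for which 109 reads in C4-2B lay at a secondary start inside the gene. The snoRNA host genes SNHG5, SNHG6, SNHG7, SNHG8, SNHG12, SNHG16 and SNHG29 had log2 ratios of 0.05 to 0.40, and NEAT1, EPB41L4A-AS1, FTX, JPX, LINC00467 and MIR17HG 0.04 to 0.35. MIR205HG, in which the reads were few, stood at 16 and 22 (0.72). MIR31HG, at 21 and 47 reads, was the only one of the 19 past 2-fold. Whether each gene of this list is in fact widely expressed was not checked.

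Motif letters within 100 bp of the summit separated the C4-2B-only from the C4-2BER-only peaks. The androgen response element was in 35 of 1386 C4-2B-only lncRNA promoter peaks (2.53%, interval 1.82 to 3.49%), in 26 of 3708 shared peaks (0.70%) and in 0 of 1014 C4-2BER-only peaks, which allows a share of up to 0.296% when 3 counts are taken as the limit of a count of 0 (the Wilson upper limit is 0.377%). In all intervals the shares were 2.84% of the C4-2B-only and 0.24% of the C4-2BER-only intervals, close to those of the lncRNA promoters. Forkhead letters, TGTTTAC or TATTTAC, were in 17.1% (interval 15.2 to 19.2%) of the C4-2B-only and 7.59% (interval 6.12 to 9.39%) of the C4-2BER-only peaks. The AP-1 letters TGANTCA were in 12.2% and 7.89%, and the GATA letters AGATAA in 11.9% and 8.88%. All line-only intervals split the same way, with 20.3% and 9.61% for forkhead, 11.2% and 9.01% for AP-1 and 14.5% and 9.55% for GATA letters, so the split is not particular to lncRNA promoters.

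The C4-2BER-only peaks held more of the letters of CpG-rich promoters. The SP and KLF box GGGCGG was in 24.4% (interval 21.8 to 27.1%) of them and in 927 of the 3708 shared peaks, but in 6.42% (interval 5.25 to 7.84%) of the C4-2B-only peaks. ETS letters, CCGGAAG, were in 3.65% and 1.44%. The HNF1 letters were rare, with 8 matches among the C4-2BER-only peaks (0.79%, interval 0.40 to 1.55%) and 1 among the C4-2B-only peaks (0.07%), and in all intervals with 0.70% and 0.02%. CTCF letters, CCA, 2 bases, AG, 2 bases and GGC, marked the shared peaks, with 9.01% against 3.94% of the C4-2BER-only and 2.02% of the C4-2B-only peaks. Over all intervals the C4-2BER-only and C4-2B-only shares were 12.8% and 4.12% for GGGCGG, 1.36% and 1.00% for ETS and 4.36% and 1.84% for CTCF letters, in the same directions. The PAX5 core GCGTGAC was in 1.48% and 0.87% of the C4-2BER-only and C4-2B-only peaks, with intervals of 0.90 to 2.43% and 0.50 to 1.51% that overlap. Motif shares move with base composition, whose part in these differences was not tested. In a split by position, chosen after seeing the data, the forkhead share over the TSS was 16.5% in C4-2B-only and 8.31% in C4-2BER-only peaks, and off the TSS 17.3% and 7.06%. The GGGCGG share was 8.10% and 31.4% over the TSS and 5.84% and 19.1% off it. The directions were the same at peaks that cover a start and at those that do not.

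**Figure D4:**
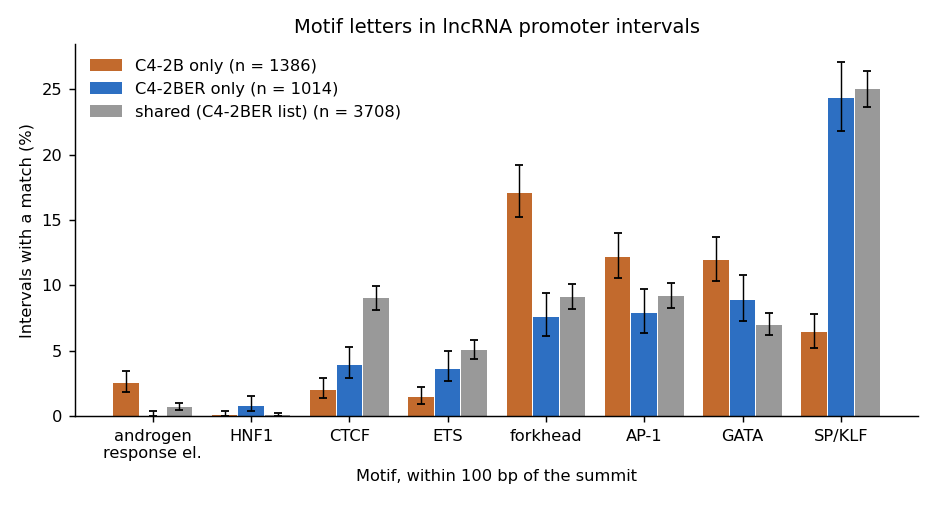
Percent of lncRNA promoter intervals with motif letters within 100 bp of the summit (vertical axis) for 8 motifs (horizontal axis), in 1386 C4-2B-only, 1014 C4-2BER-only and 3708 shared intervals, with Wilson 95% intervals. The forkhead bar is highest in C4-2B only (17.1%), and the SP/KLF bars of C4-2BER only and shared (24.4% in C4-2BER only) stand above that of C4-2B only (6.42%).

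The next comparison asked whether the nearest coding gene had the same state as the lncRNA gene. Of the 964 C4-2B-only lncRNA genes, 83.8% had a nearest coding gene whose promoter was open in both lists, and 19 (1.97%, interval 1.27 to 3.06%) a neighbour open in C4-2B only, against 2.83% of all coding genes. Of the 644 C4-2BER-only lncRNA genes, 83.5% had a neighbour open in both lists, and 24 (3.73%, interval 2.52 to 5.49%) a neighbour open in C4-2BER only, against 3.39% of all coding genes. In the full lists, line-only lncRNA promoters thus had line-only neighbours about as often as any coding gene is line-only. The median distance to the neighbour was 40747 bp for the C4-2B-only and 49588.5 bp for the C4-2BER-only genes. Within 10 kb, 16 of 203 C4-2B-only lncRNA genes (7.88%, interval 4.91 to 12.4%) had a neighbour open in C4-2BER only. A neighbour open in C4-2B only was found for 4 of them. For lncRNA genes in both lists these counts were 20 (3.36%, interval 2.18 to 5.13%) and 23 (3.86%) of 596. For C4-2BER-only lncRNA genes they were 4 and 4 of 95. This range is 1 of several that were counted, and no difference was tested.

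**Figure D5:**
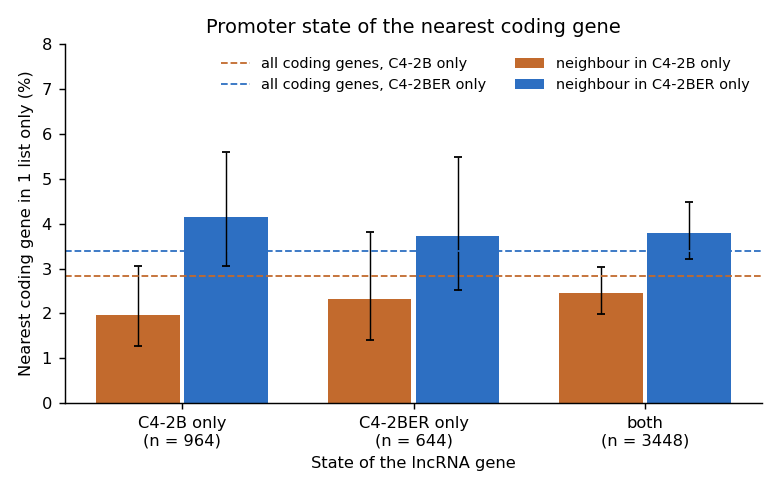
Percent of lncRNA genes whose nearest coding gene had its promoter in 1 list only (vertical axis), by state of the lncRNA gene (horizontal axis, with n), with Wilson 95% intervals. Dashed lines are the shares among all coding genes (2.83 and 3.39%), and the intervals of the matched pairs, 1.27 to 3.06% and 2.52 to 5.49%, include them.

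The lncRNA genes with the strongest peaks among the matched pairs, 8 of the 19 in C4-2B only and 8 of the 24 in C4-2BER only, had the following nearest coding genes. In C4-2B only these were ANGPT2, an angiopoietin (100 reads at its promoter), KRT86, a hair keratin (16), APOA4, an apolipoprotein (20), SPINK13 (22, with FBXO38-DT), LYVE1, a lymphatic receptor (13, with IRAG1-AS1), MMP2, a matrix protease (40, with MMP2-AS1 and a second lncRNA gene at the same peak) and FGL1 (19), at distances of 4235 to 37211 bp. The lncRNA gene paired with APOA4, ENSG00000236267, held a CTCF match near its summit. In C4-2BER only they were HEYL, a Notch target (68 reads), ST6GALNAC3, a sialyltransferase (79), CCDC8 (53) and FAM47C (11), at 6287 to 33999 bp. The other C4-2BER-only pairs lay farther apart, with IGHV3OR16-17 (18 reads), an orphan immunoglobulin segment with close copies, at 137437 bp and TMEM132C (8 reads), the nearest coding gene of 3 lncRNA genes at 1 peak, at 1120512 bp.

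Neighbours open in both lists were compared by the strength of their promoter peak. All 15305 coding genes with a promoter peak in both lists had a median log2 ratio of 0.14. Of them 3.06% were at least 2-fold higher in C4-2BER and 1.39% (interval 1.22 to 1.59%) at least 2-fold lower. The 250 neighbours within 50 kb of a C4-2BER-only lncRNA gene had a median of 0.17, with 19 (7.60%, interval 4.92 to 11.6%) at least 2-fold higher and 2 (0.80%) at least 2-fold lower. The 409 neighbours within 50 kb of a C4-2B-only lncRNA gene had a median of 0.11, with 11 higher and 11 lower (2.69% each). Some of the 19 are given here, chosen after their values were seen and not as a group tested for a shared function. NKX2-5, a homeobox gene, stood at 12 reads in C4-2B against 105 in C4-2BER, POU3F3, next to PANTR1, at 21 and 68, NKX1-2 at 24 and 50, BHLHE23 at 18 and 38 and ZEB2, next to LINC01412, at 14 and 26. The neuropeptide gene ADCYAP1 stood at 29 and 60, the tubulin gene TUBB2B, next to LINC02525, at 18 and 41, and ANK2, an ankyrin gene, at 32 and 67. Others were CPAMD8 at 53 and 113, SYCE1L at 24 and 68, CCDC13 at 23 and 53, RFTN1 at 17 and 40 and LYPD4 at 12 and 31. Near-identical copies exist for GOLGA6L7, another of the 19. The 11 lower neighbours of C4-2B-only genes included MSMB, which encodes a secreted protein of the prostate, at 140 and 50, the cadherin genes CDH5 at 91 and 27 and CDH23 at 141 and 43, and CXCL13, a chemokine gene, at 87 and 28.

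Line-only lncRNA peaks also occurred in runs, defined as 3 or more with gaps of at most 100 kb between consecutive peaks. The longest in C4-2BER held 5 peaks at chr12:54081307-54146867, around LINC02381 and FAM242C, with a median of 22 reads. A run of 4 at chr7:27098775-27123270 held HOTAIRM1 and HOXA-AS2, with a median of 29 reads, and a run of 3 at chr15:89362149-89400536 held MIR9-3HG, the host of miR-9-3, with 37. Runs in C4-2B included 4 peaks of LINC00511, 4 of USP2-AS1 and 4 around MIR99AHG, with medians of 18.5, 15 and 29 reads. HOXA-AS2, MIR9-3HG, MIR99AHG, LINC00511 and USP2-AS1 were themselves genes in both lists, and their strongest peaks in the lists did not overlap. SLC8A1-AS1 was another such gene. Its androgen response element peak in C4-2B had 68 reads, and a peak in C4-2BER that did not overlap it had 15.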

How the data were processed

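ATAC-seq libraries of C4-2B and C4-2BER, 2 per line, were trimmed with cutadapt and aligned to hg38 with Bowtie2 by the authors, filtered for mapping quality and duplicates, and merged per line before macs2 called peaks (no model, 200 bp extension). The submitters' processing notes also name FastQC, Picard and bedtools 2.17. The macs2 version was not given in the sources used here. The deposited lists give, per summit, the fold enrichment (a ratio of reads to local background), the −log10 p and −log10 q of macs2, and, as another deposited value, how many bp the summit lies past the start of its interval. The deposited score was not used.

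Each interval was counted once, with its summit of highest −log10 p. Whole summit reads were solved from the fold and the Poisson −log10 p for 100% of summits, with a largest error of 0.000251 in C4-2B and 0.000259 in C4-2BER. On 10530 simulated summits 100% were recovered. The lowest background gave the depth, for a genome size of 2700000000 bp. Depth-scaled ratios use the depth ratio of 1.20.

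GENCODE release 44 on hg38 supplied TSSs and gene classes. A gene was judged at the TSSs that a lncRNA promoter peak overlaps, any interval of the other list within 1000 bp counting. The neighbour is the coding gene with the nearest TSS, open when an interval lay within 2000 bp of any of its TSSs. Sequences were read from hg38, and motifs on both strands, where the letters of different motifs can overlap. Named genes are the 10 strongest line-only genes with a symbol in each direction without a peak within 10 kb in the other list, the 5 strongest, 5 gaining and 5 losing most rank in both lists, the listed genes, and the 8 strongest matched pairs in each direction. Members and lists were chosen with earlier results of these data known. Alternatives covered strength, list length, depth, overlap, window, coding distance, transcripts and motif window. The repeat content of peaks was not computed, since the genome used carries no repeat marking. Python 3.11.15 with numpy 2.4.6, pandas 2.3.3 and scipy 1.17.1 was used. A few genes and 1 sequence that the rule names are not reported here.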

Additional observations from a re-analysis of the deposited data

How the results depend on the processing

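No paired analysis was possible because the libraries of a line were merged before peaks were called, and for the same reason no library could be left out. Depth limits both lists: no summit below 8 reads in C4-2B or 7 in C4-2BER was listed, so a line-only promoter can be a weak one in the other line. Limiting both lists to a −log10 q of 10 or more gave shared percents of lncRNA promoter peaks of 70.0% (C4-2B) and 82.6% (C4-2BER), 2952 peaks in C4-2BER, 426 genes in C4-2BER only, 6.57% of them with a C4-2BER-only neighbour, and a CTCF share of 3.81% in C4-2B-only peaks. With lists of equal length, the shared percents were 80.9% and 71.8%, and 588 genes were in C4-2B only. The matched neighbour shares were 1.02% in C4-2B and 6.53% in C4-2BER, and the forkhead share of C4-2B-only peaks was 19.2%. The line-only shares of all coding genes were not recomputed at either setting. The neighbour shares there have no background to be read against. Equal lengths alone turned the order of the line-only gene counts, to 588 and 903, and the order of the shared percents, and by construction they remove the weakest C4-2B intervals. A reciprocal overlap of 50% gave shared percents of 62.8% and 67.2%, and a gap of up to 500 bp gave 76.8% and 82.4%. The C4-2B shared percent was 76.7% with a window of 500 bp, 68.4% with 2000 bp and 74.4% with 1 canonical TSS per gene. Motifs sought within 250 bp of the summit gave CTCF shares of 3.46% in C4-2B-only and 5.62% in C4-2BER-only peaks, and forkhead shares of 26.8% and 17.2%. The cause was not tested for the other changes. Of 100 alternative values 77 stayed within the interval or 1.5 times of the reported one. Scaling the C4-2B list to the C4-2BER depth, a coding distance of 5000 bp, all transcripts of coding genes and neighbours within 50 kb moved none of the values they apply to past these limits. Splitting the motif shares by TSS position was chosen after seeing the data and kept both directions for forkhead and GGGCGG letters.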
